A study of Mus musculus with 12 samples.

Results

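The 10 genes described here are *Sod1*, *C9orf72*, *Optn*, *Tbk1*, *Vcp*, *Sqstm1*, *Ubqln2*, *Grn*, *Tmem106b* and *Chchd10*, the mouse counterparts of genes linked by mutation or risk variants to amyotrophic lateral sclerosis (ALS) and frontotemporal dementia (FTD) that do not encode RNA-binding proteins. They were taken by gene symbol, with no threshold on a measured value, from 36047 genes in the deposited annotation, and all 10 were found, with 53 transcripts between them. Messenger RNA of mouse brain cortex was sequenced in 12 libraries that fall into 4 groups of 3: wild-type (WT) and *Gde2*KO animals at 4 months, and WT and *Gde2*KO animals at 19 months. *Gde2*KO mice lack GDE2, a cell surface enzyme encoded by *Gdpd5* that cleaves glycosylphosphatidylinositol anchors, through a null allele carried in every cell, so that a difference cannot be assigned to a cell type or a life stage. No other allele or treatment is given for any group, and the sex of the animals is not labelled. The question addressed was whether loss of GDE2 is accompanied by a change in the messenger RNA of the genes that, when mutated, cause or modify ALS and FTD.

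The products of these genes meet in protein quality control. Optineurin and p62 (*Sqstm1*) are receptors that tie ubiquitinated cargo to the autophagosome, and TBK1 is the kinase that phosphorylates both. The C9orf72 protein acts in a complex on membrane traffic and lysosomes, VCP pulls ubiquitinated proteins out of complexes and membranes, and ubiquilin-2 shuttles them to the proteasome. Progranulin (*Grn*) and TMEM106B act in the lysosome, SOD1 removes superoxide in the cytosol, and CHCHD10 is a protein of the mitochondrial intermembrane space. In people, the repeat expansion in *C9orf72* and mutations in *SOD1* are among the commonest known genetic causes of ALS, loss of 1 *GRN* copy causes FTD, and common variants at *TMEM106B* modify its risk.

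Expression is given as normalized counts, which are estimated read counts scaled between libraries and summed over the transcripts of a gene, and as TPM, a transcript abundance that also accounts for transcript length and is used wherever genes are compared with each other. Depth differed between libraries. The 4-month libraries held an estimated 46434135 to 59728927 reads, whereas at 19 months 1 WT library (WT A) held 6734479 and 1 *Gde2*KO library (*Gde2*KO A) 3707941, against 36915433 to 44604657 in the other 4. *Gde2*KO replicate 3 at 4 months stood apart, with 8.84% of its normalized counts in mitochondrially encoded genes against 4.09% to 5.97% in the other 11. Its normalized counts summed to 41229086 against 30751064 to 35949224 in the other 11, and its TPM to 1472299 against 887748 to 1103966. A high value in this library is therefore not particular to a gene. WT replicates 1 and 2 at 4 months held more hippocampal marker RNA, with 493 and 426 summed TPM over 9 genes against 100.6 to 157 in the other 10 libraries. The same 2 libraries held less striatal marker RNA (253 and 139 summed TPM over 8 genes against 1097 to 2713 in the other 4 at 4 months) and less RNA of cortex layer markers (142.9 and 169 over 8 genes against 243 to 259.5). At 19 months striatal markers summed to 248 to 714 TPM and cortex layer markers to 289 to 302. Neuron markers were high in all 12 libraries (7377 to 9524 summed TPM over 10 genes). The Y-linked gene *Ddx3y* had 0 to 46.5 normalized counts in all 6 libraries at 4 months and in *Gde2*KO A, and 1407 to 1776 in the other 5 libraries at 19 months. Age therefore cannot be told apart from depth or the level of Y-linked genes, and in whole cortex fewer cells of a type cannot be told apart from less RNA per cell.

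*Gdpd5*, the gene targeted in the knockout, followed the labels. Its normalized counts were 684, 702 and 1199 in WT and 417, 585 and 403 in *Gde2*KO at 4 months, and 1065, 1129 and 952 in WT against 441, 456 and 560 in *Gde2*KO at 19 months. The groups did not overlap at either age, although 0.555 of the WT level at 4 months and 0.462 at 19 months remained in the knockout. The log2 difference was -0.85 ± 0.25 (SE; adjusted p = 0.463) at 4 months and -1.11 ± 0.12 (adjusted p = 0.0111) at 19 months.

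Per length, *Sod1* was the most abundant of the 10 genes, with a mean of 644 TPM over the 12 libraries (lowest 530, highest 1131). It was followed by *Sqstm1* at 389 TPM, *Chchd10* at 299, *Vcp* at 177, *Ubqln2* at 105, *Tmem106b* at 61.9, *Tbk1* at 54.1, *Grn* at 44.0, *Optn* at 15.03 and *C9orf72* at 14.9 TPM. Each of *Sod1*, *Chchd10*, *Vcp*, *Ubqln2* and *Grn* lay above the gene after it in every library, without overlap of the 12 values. *Sqstm1* and *Chchd10*, *Tmem106b* and *Tbk1*, *Tbk1* and *Grn*, and *Optn* and *C9orf72* overlapped with their neighbours in that order. Even the least abundant pair stood near the 70th percentile of all genes with a mean TPM above 0 (69.8% for *C9orf72* and 69.9% for *Optn*), so all 10 were well detected and all 10 passed the filter on low values.

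**Figure D1:**
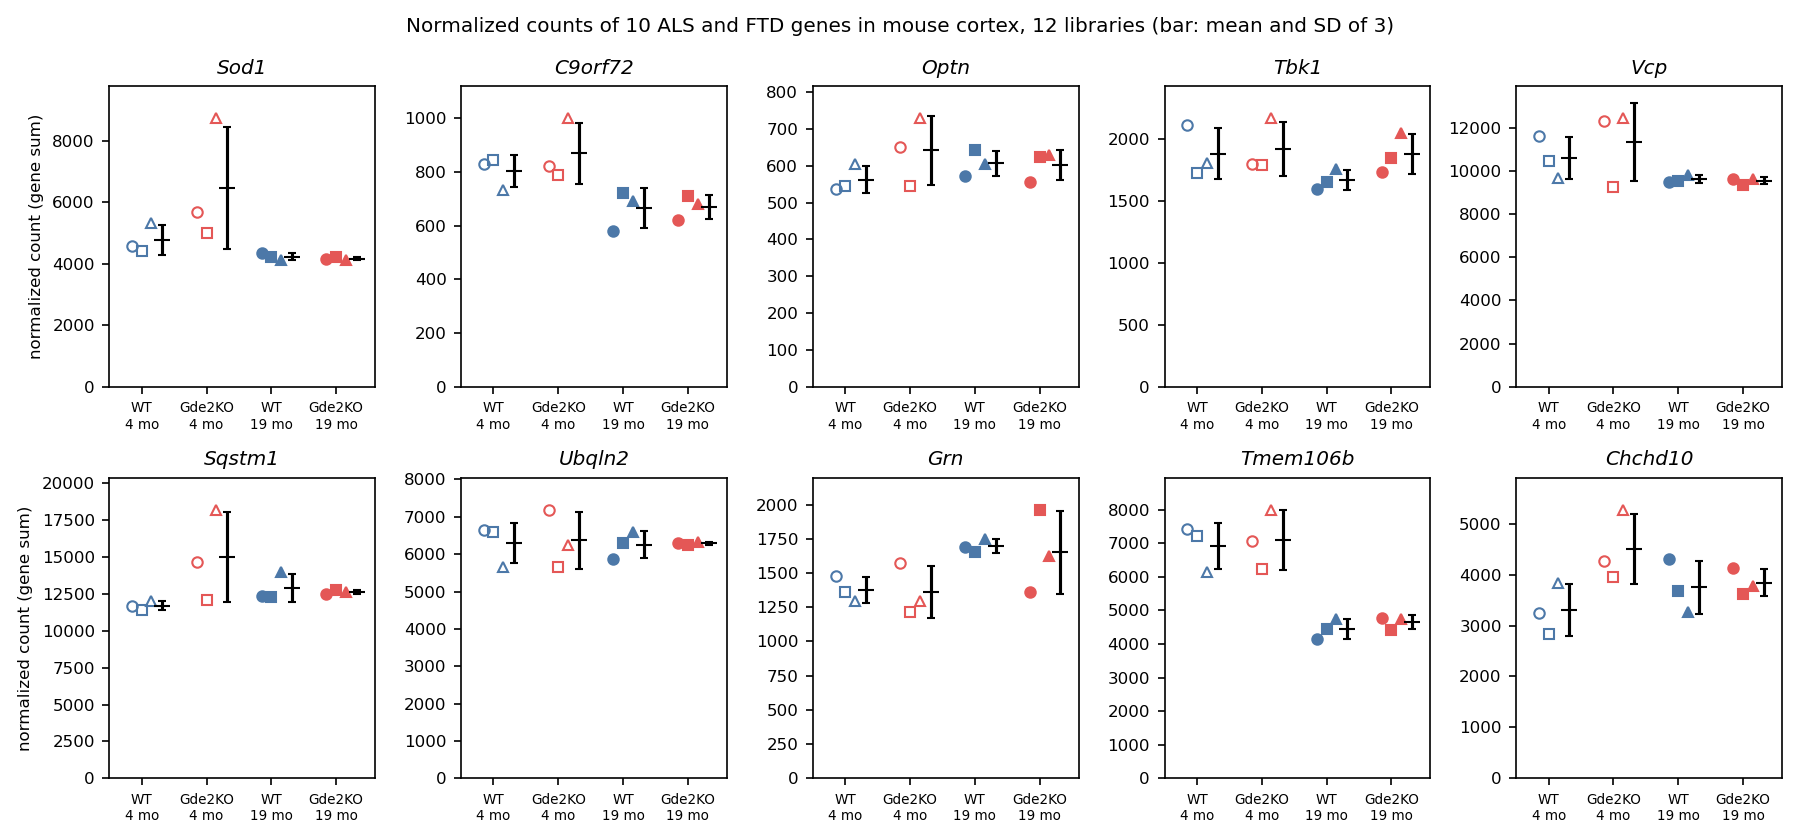
Normalized counts (vertical axes, from 0) of the 10 genes in each of the 12 libraries, grouped by genotype and age. Open symbols are 4-month and filled symbols 19-month libraries, circles, squares and triangles are replicates 1 to 3 or libraries A to C, and the black bar is the mean and SD of 3 libraries. *Tmem106b* is the gene whose 6 libraries at 19 months all lie below the 6 at 4 months by the widest margin, and 4-month *Gde2*KO replicate 3 is the highest of the 12 libraries for 8 of the 10 genes. That library also has the largest total of normalized counts.

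None of the 10 genes was called different between *Gde2*KO and WT at 4 months or at 19 months. A gene was called at a limma adjusted p under 0.1 with an absolute natural-log fold change above 0.5 (0.721 on the log2 scale), a rule that called 24 of 19035 genes at 4 months (0.126%) and 18 of 18583 at 19 months (0.0969%), so that 0 of 10 was near the background. At 4 months the log2 differences ran from -0.02 (*Grn*) to 0.45 (*Chchd10*), 9 of the 10 were positive, and their median of 0.10 stood beside a median of 0.11 over all genes. With median-ratio scaling the median of all genes was 0.01, and the differences of *Tbk1*, *Vcp*, *Ubqln2* and *Tmem106b* were then below 0. The smallest adjusted p of the 10 was 0.463, and 1 gene had an unadjusted limma p under 0.05. With library weights 2420 of 19035 genes passed the full rule at 4 months, and none of the 10 did. The adjusted limma p alone was then under 0.1 for *Chchd10* (0.53, adjusted p = 0.0123), *Sqstm1* (0.34, adjusted p = 0.0291), *Sod1* (0.35, adjusted p = 0.0469) and *Optn* (0.23, adjusted p = 0.0831), all under the fold threshold. How many of all genes passed the adjusted p alone with these weights was not counted, so nothing is read from these values. At the same age the median difference was 2.08 for the 8 striatal markers, 1.122 for the 8 cortex layer markers and -1.59 for the 9 hippocampal markers, with 0 called, and their part in the differences of the 10 genes was not tested. At 19 months the differences ran from -0.06 (*Grn*) to 0.16 (*Tbk1*), 5 were positive and 5 negative, the median was -0.0004 against -0.02 over all genes, and the smallest adjusted p was 0.712. None of the 10 had an unadjusted limma p under 0.05 at 19 months, and the libraries of 2 genes at 4 months and 0 at 19 months did not overlap between genotypes, against 15.4% and 14.2% of all genes.

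At 19 months the 95% confidence intervals of all 10 genes lay within the fold threshold, from a lowest bound of -0.33 to a highest of 0.34 on the log2 scale. At 4 months the intervals of 7 genes lay within it, and those of *Sod1*, *Sqstm1* and *Chchd10* reached beyond, up to 0.89 for *Sod1*.

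**Figure D2:**
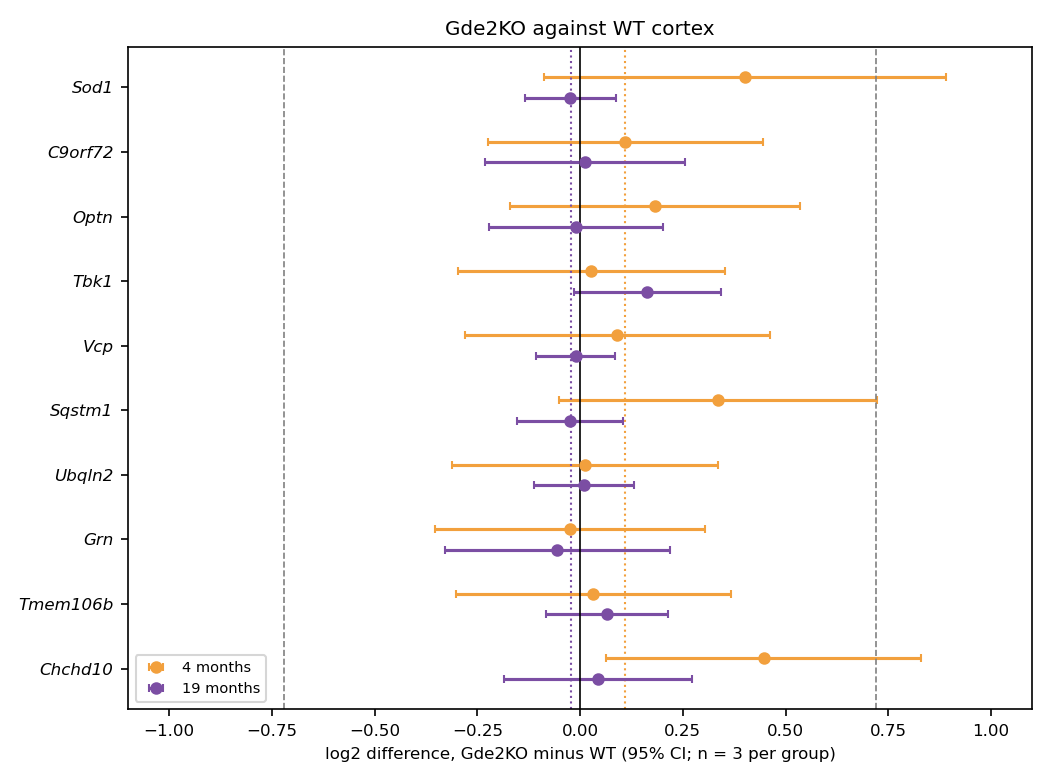
Log2 difference of *Gde2*KO minus WT (horizontal axis) for each of the 10 genes at 4 months (orange) and 19 months (purple), as points with 95% confidence intervals, 3 libraries per group. Dashed lines mark the fold threshold of 0.721 and dotted lines the median of all genes, and the intervals are wider at 4 months, where *Chchd10*, *Sod1* and *Sqstm1* lie farthest to the right at 0.45, 0.40 and 0.34.

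Between 4 and 19 months, the clearest difference among the 10 genes was in *Tmem106b*, whose RNA was lower at 19 months in both genotypes. None of the 10 passed the full rule, which called 2565 of 18731 genes in WT (13.7%) and 2224 of 18731 in *Gde2*KO (11.9%). On the adjusted p alone, 1 of the 10 passed in WT (*Tmem106b*), where 28.2% of all genes did (15.1% lower), and 3 passed in *Gde2*KO (*Tmem106b*, *Sod1* and *C9orf72*), where 32.3% did (24.9% lower). The groups of 5 genes did not overlap in WT and those of 3 did not in *Gde2*KO, against 46.0% and 41.2% of all genes. These shares are near the background, and the age comparisons share their 4-month and 19-month groups with the genotype comparisons. The median of all genes was -0.07 in WT and -0.21 in *Gde2*KO, and that of the 10 genes was -0.07 and -0.22. Of the genes called in *Gde2*KO, 478 were higher and 1746 lower, or 725 and 937 with median-ratio scaling between libraries, which brought the median of all genes to -0.05. With library weights 4125 of 18731 genes passed the full rule in WT. How many of all genes passed the adjusted p alone in the alternative runs was not counted. Where 1 of the 10 genes passed it only in such a run, the value is given and nothing is read from it.

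**Figure D3:**
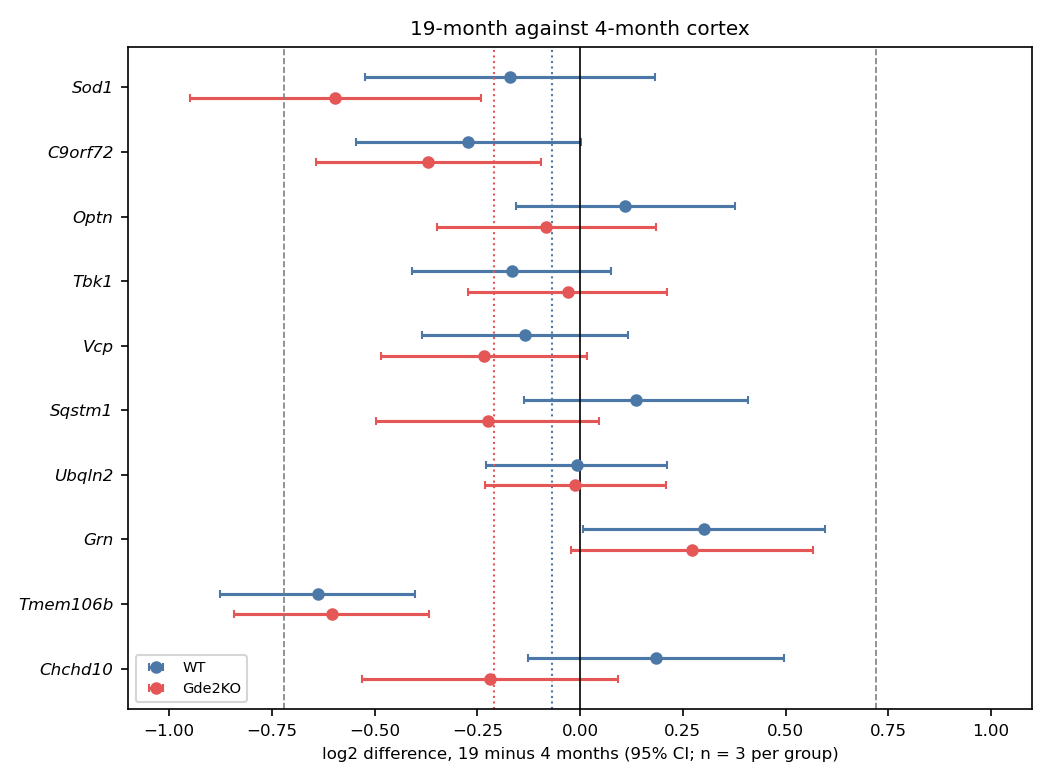
Log2 difference of 19 minus 4 months (horizontal axis) for each of the 10 genes in WT (blue) and *Gde2*KO (red), as points with 95% confidence intervals, 3 libraries per group. Dashed lines mark the fold threshold of 0.721 and dotted lines the median of all genes in that genotype. Both *Tmem106b* intervals lie wholly below 0, at -0.64 in WT and -0.60 in *Gde2*KO.

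*Tmem106b* (chr6:13069759-13089269, plus strand, GRCm38) encodes a membrane protein of late endosomes and lysosomes. Its normalized counts at 4 months were 7423, 7214 and 6150 in WT and 7066, 6235 and 7998 in *Gde2*KO. At 19 months they were 4142, 4432 and 4759 in WT and 4785, 4414 and 4742 in *Gde2*KO, so that every library at 19 months was below every library at 4 months and the genotypes overlapped at both ages. The log2 difference with age was -0.64 ± 0.11 (SE; 95% confidence interval -0.88 to -0.40, adjusted p = 0.00353) in WT and -0.60 ± 0.11 (-0.84 to -0.37, adjusted p = 0.00606) in *Gde2*KO. Relative to the median of all genes these were -0.57 and -0.40. The exact permutation p was 0.1 in each genotype, two-sided, the smallest that 3 libraries against 3 can give. No difference in age effect between genotypes was called (interaction 0.03 ± 0.15, adjusted p = 0.924). In WT it missed the adjusted p threshold when 4-month replicates 1 and 2, the libraries with more hippocampal RNA, were both left out (-0.47, adjusted p = 0.163). On TPM the difference in WT was -0.80, past the fold threshold, where the median of the 10 genes was -0.04. The TPM of the WT libraries summed to 1003570 to 1059701 at 4 months and 887748 to 929745 at 19 months. The part of these totals in the TPM result was not tested. Lists of marker genes were lower in some cases and higher in others at 19 months. All 8 oligodendrocyte markers had negative age differences in both genotypes (median -0.53 in WT and -0.54 in *Gde2*KO, 3 of 8 called lower in each), and their summed TPM was 2943 to 3759 in WT and 3681 to 3797 in *Gde2*KO at 4 months against 2207 to 2929 and 2652 to 3565 at 19 months. The median of the striatal markers was -1.02 in WT (0 of 8 called) and -1.97 in *Gde2*KO (2 of 8 called lower), and that of the hippocampal markers -1.97 (6 of 9 called lower) and -0.09 (1 of 9). In WT the medians of other lists were above 0, at 0.85 for cortex layer (4 of 8 called higher, 1 lower), 1.62 for blood (4 of 6 called higher), 0.32 for endothelial, 0.18 for microglial and 0.12 for neuron markers. In *Gde2*KO these were 0.0047, 0.67, 0.10, -0.19 and -0.10. Astrocyte markers had medians of -0.18 in WT and 0.06 in *Gde2*KO. The part of all these markers in the *Tmem106b* result was not tested. The genotype difference was 0.03 ± 0.15 at 4 months and 0.07 ± 0.06 at 19 months.

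The sequence upstream of *Tmem106b* and of *Sod1* is shown because these genes passed the adjusted p with age in *Gde2*KO. *C9orf72* passed too, but 234 of the 250 bases before its RefSeq start lie in annotated exons, so they are not printed. For *Tmem106b* and *Sod1* these were 0 and 8 bases. Each line gives the 250 bases before the RefSeq transcription start (GRCm38.p6), 5′ to 3′ on the strand of the gene, at chr6:13069509-13069758 for *Tmem106b* and chr16:90220512-90220761 for *Sod1*, both on the plus strand. Capitals mark GGGCGG (the GC box core, either strand, overlapping copies merged), TATAAA and CACGTG (the E-box at the core of the site that the lysosomal regulator TFEB binds).
Tmem106b: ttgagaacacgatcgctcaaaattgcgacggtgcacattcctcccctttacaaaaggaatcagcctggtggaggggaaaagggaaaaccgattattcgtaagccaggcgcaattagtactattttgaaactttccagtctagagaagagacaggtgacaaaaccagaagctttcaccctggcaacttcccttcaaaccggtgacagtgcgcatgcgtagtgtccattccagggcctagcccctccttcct
Sod1: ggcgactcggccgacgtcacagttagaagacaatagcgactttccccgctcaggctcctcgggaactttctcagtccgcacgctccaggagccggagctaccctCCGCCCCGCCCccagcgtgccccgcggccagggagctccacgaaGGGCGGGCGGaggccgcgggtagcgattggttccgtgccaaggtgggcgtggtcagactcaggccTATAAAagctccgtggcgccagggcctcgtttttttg
The *Tmem106b* window was 49.2% G or C and held none of the 3 motifs, and the *Sod1* window was 66.4% G or C and held 4 copies of GGGCGG and 1 of TATAAA. Over all 32851 windows of that length, 32.7% held GGGCGG, 12.4% TATAAA and 6.02% CACGTG. Of the 9 genes matched to a window (all but *Ubqln2*), 6 held GGGCGG (*C9orf72*, *Grn*, *Optn*, *Sod1*, *Sqstm1* and *Tbk1*), *Sod1* and *Vcp* held TATAAA, and 0 held CACGTG. The windows of *C9orf72*, *Grn* and *Sqstm1* lay mostly in annotated exons (234, 192 and 148 of 250 bases), so they are not upstream sequence alone. Exon overlap over all windows was not counted. The motif counts are matches of letters only.

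*Tmem106b* RNA was counted almost wholly on Tmem106b-201, the transcript of 9 exons and 6002 bases that holds the full coding sequence, with 98.1% of the gene's normalized counts in WT at 4 months. On the TPM scale, which raises the weight of short transcripts, this transcript held 76.9%, 75.4% and 77.8% of the gene in WT at 4 months and 89.0%, 81.4% and 90.0% in *Gde2*KO. All 3 knockout libraries thus lay above all 3 WT libraries. How many of all transcripts separate by genotype in this way was not counted, so nothing is read from the separation. The short Tmem106b-202 (723 bases) held 8.07%, 6.46% and 7.98% in WT and 1.79%, 3.28% and 0.988% in *Gde2*KO, again without overlap. These shares stand for 77.3 to 84.4 estimated reads per WT library and 9.76 to 27.6 per knockout library. Tmem106b-202 was chosen after its values were seen, and as a share of the same gene it is not independent of Tmem106b-201. The usage test gave an adjusted p of 0.115 with a largest share difference of 10.1 points, just short of the call at an adjusted p under 0.1 and more than 10 points. Leaving out *Gde2*KO replicate 2 brought it past that call (adjusted p = 0.00407), as did a pseudocount of 5 (0.0813) and Simes adjustment (0.0565), while leaving out *Gde2*KO replicate 3 gave 0.586. At 19 months Tmem106b-201 held 85.4% ± 4.98 (SD, n = 3) in WT and 81.9% ± 8.08 in *Gde2*KO (adjusted p = 0.979), and Tmem106b-205, a 3-exon transcript of 507 bases, held 8.71% ± 4.19 and 11.7% ± 6.73.

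Of its named relatives, *Tmem106c* had log2 age differences of 0.30 ± 0.17 in WT and -0.29 ± 0.17 in *Gde2*KO, and *Tmem106a*, at 1.22 to 2.73 TPM as group means, had 1.25 ± 1.33 and -1.45 ± 1.33, none called.

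Progranulin, secreted and lysosomal, is encoded by *Grn* (chr11:102430315-102437048), the only gene of the 10 with a higher fitted level at 19 months in *Gde2*KO. Its normalized counts were 1476, 1362 and 1292 in WT and 1574, 1211 and 1294 in *Gde2*KO at 4 months, and 1687, 1652 and 1749 in WT and 1360, 1962 and 1627 in *Gde2*KO at 19 months. The 3 WT libraries at 19 months all exceeded the 3 at 4 months, and the knockout groups overlapped. The log2 age difference was 0.30 ± 0.14 (adjusted p = 0.136) in WT and 0.27 ± 0.14 (adjusted p = 0.163) in *Gde2*KO, and the genotype difference was -0.02 ± 0.14 at 4 months and -0.06 ± 0.12 at 19 months. Neither age difference passed the adjusted p, although both did with median-ratio scaling (0.34, adjusted p = 0.0824, and 0.44, adjusted p = 0.0389), as did the WT value with library weights (0.29, adjusted p = 0.0165) and the knockout value without *Gde2*KO A (0.40, adjusted p = 0.0609) or without *Gde2*KO replicate 1 (0.38, adjusted p = 0.0905). The share of all genes passing in those runs was not counted, so nothing is read from these passes. Grn-201, of 13 exons, carried 93.8% to 95.2% of the gene's normalized counts as a group mean. *Sort1*, the receptor that takes up progranulin, had age differences of -0.19 ± 0.10 in WT and 0.01 ± 0.10 in *Gde2*KO, and *Psap*, whose product binds progranulin on its way to the lysosome, 0.19 ± 0.12 and -0.11 ± 0.12.

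Superoxide dismutase 1 is encoded by *Sod1* (chr16:90220754-90226329). Its normalized counts at 4 months were 4575, 4413 and 5322 in WT and 5665, 5013 and 8725 in *Gde2*KO. At 19 months they were 4361, 4202 and 4118 in WT and 4163, 4201 and 4107 in *Gde2*KO, a spread of 1.14% of the mean (SD) in the knockout against 30.6% at 4 months. The log2 genotype difference was 0.40 ± 0.21 (adjusted p = 0.484) at 4 months and -0.02 ± 0.05 (adjusted p = 0.898) at 19 months. With age, *Sod1* was lower by -0.17 ± 0.16 (adjusted p = 0.487) in WT and by -0.60 ± 0.16 (95% confidence interval -0.95 to -0.24, adjusted p = 0.026) in *Gde2*KO, or -0.39 relative to the median of all genes. Although only the knockout passed, the interaction did not (-0.43 ± 0.23, adjusted p = 0.423). With library weights the interaction passed (-0.37, adjusted p = 0.019), but so did that of 6460 of 18731 genes, so nothing is read from it. Both differences were smaller without *Gde2*KO replicate 3: the age difference in *Gde2*KO was -0.36 (adjusted p = 0.0296) and the 4-month genotype difference 0.16 (adjusted p = 0.788). The coding transcript Sod1-201 held 99.1% to 99.6% of the gene's TPM as a group mean. *Ccs*, the chaperone that loads SOD1 with copper, had age differences of -0.0042 ± 0.18 in WT and -0.44 ± 0.18 in *Gde2*KO (adjusted p = 0.0896), and *Sod2*, the mitochondrial dismutase, 0.05 ± 0.08 and -0.17 ± 0.08.

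*C9orf72* (chr4:35191285-35226175, minus strand) was the third gene to pass the adjusted p in *Gde2*KO. Its normalized counts were 830, 846 and 735 in WT and 821, 788 and 1001 in *Gde2*KO at 4 months, and 582, 723 and 694 in WT and 622, 710 and 680 in *Gde2*KO at 19 months. In both genotypes the 19-month libraries lay below the 4-month ones without overlap. The age difference was -0.27 ± 0.13 (adjusted p = 0.146) in WT and -0.37 ± 0.13 (adjusted p = 0.0546) in *Gde2*KO, the latter -0.16 relative to the median of all genes, and the interaction was -0.10 ± 0.18 (adjusted p = 0.80). The knockout value lost the threshold without *Gde2*KO replicate 3 (-0.26, adjusted p = 0.16), without *Gde2*KO A (-0.32, adjusted p = 0.136) or C (-0.38, adjusted p = 0.109) at 19 months, on TPM (-0.22, adjusted p = 0.26) and with median-ratio scaling (-0.20, adjusted p = 0.195). The WT value passed with library weights (-0.27, adjusted p = 0.00868) and without WT replicate 3 (-0.34, adjusted p = 0.0993). Nothing is read from these WT passes, since the share of all genes passing in those runs was not counted. Genotype differences were 0.11 ± 0.15 at 4 months and 0.01 ± 0.11 at 19 months. The 11-exon coding transcript C9orf72-203 held 91.7% to 94.8% of the normalized counts as a group mean. The proteins that form a complex with C9orf72 are encoded by *Smcr8*, with age differences of -0.12 ± 0.09 in WT and 0.15 ± 0.09 in *Gde2*KO, and *Wdr41*, with -0.19 ± 0.10 and -0.23 ± 0.10.

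No difference in the autophagy receptors *Optn* and *Sqstm1* or their kinase *Tbk1* passed the adjusted p in any comparison with equal library weights and all libraries. *Optn* (chr2:5020642-5064051, minus strand) had 538, 545 and 604 normalized counts in WT and 651, 544 and 729 in *Gde2*KO at 4 months, and 573, 643 and 603 in WT and 556, 624 and 628 in *Gde2*KO at 19 months. The groups overlapped in each comparison, with genotype differences of 0.18 ± 0.15 and -0.01 ± 0.09 and age differences of 0.11 ± 0.12 in WT and -0.08 ± 0.12 in *Gde2*KO. *Sqstm1* (chr11:50199366-50210827, minus strand) had 11692, 11412 and 12014 in WT and 14636, 12112 and 18203 in *Gde2*KO at 4 months, where the knockout libraries all exceeded WT. The log2 difference was 0.34 ± 0.17 (adjusted p = 0.476), and 0.19 without replicate 3. At 19 months *Sqstm1* had 12385, 12300 and 13958 in WT and 12511, 12757 and 12657 in *Gde2*KO, overlapping (-0.02 ± 0.06). With library weights the age differences of *Optn* in WT (0.19, adjusted p = 0.0368) and of *Sqstm1* in WT (0.15, adjusted p = 0.0717) and *Gde2*KO (-0.20, adjusted p = 0.0195) passed the adjusted p, as did that of *Sqstm1* in *Gde2*KO without replicate 2 (-0.37, adjusted p = 0.0179), all under the fold threshold. Because the share of all genes passing in those runs was not counted, these are values only.

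*Tbk1* (chr10:121546455-121586787, minus strand) had 2114, 1728 and 1809 normalized counts in WT and 1798, 1795 and 2170 in *Gde2*KO at 4 months. At 19 months it had 1602, 1659 and 1760 in WT and 1733, 1849 and 2052 in *Gde2*KO, a log2 difference of 0.16 ± 0.08 (95% confidence interval -0.01 to 0.34, adjusted p = 0.712), the largest genotype difference of the 10 at that age. The groups overlapped at both ages. Its age differences were -0.17 ± 0.11 in WT and -0.03 ± 0.11 in *Gde2*KO.

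None of the 20 partners named here was called between genotypes. With age, *Tax1bp1*, an autophagy receptor related to optineurin in role, had differences of -0.28 ± 0.11 in WT and -0.48 ± 0.11 in *Gde2*KO (adjusted p = 0.0954 and 0.0159), and *Rab8a*, a small GTPase that binds optineurin, -0.18 ± 0.16 and -0.40 ± 0.16. The TBK1 adaptors *Tank* and *Azi2* had -0.07 ± 0.13 and -0.14 ± 0.10 in WT, and -0.39 ± 0.13 and -0.38 ± 0.10 in *Gde2*KO. *Nbr1*, a cargo receptor that binds p62, had 0.03 ± 0.07 and -0.16 ± 0.07, and *Keap1*, which p62 sequesters, -0.05 ± 0.11 and -0.22 ± 0.11. None of the 6 passed the fold threshold.

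*Optn* was not called for transcript usage. At 19 months its adjusted p was 0.00617, where 0.326% of all genes had one under 0.1, and the largest share difference was 9.63 points, under the 10-point rule. One transcript of the test was Optn-205, a 9-exon non-coding transcript of 1198 bases (chr2:5021301-5037197), which had 0, 0 and 0 normalized counts in WT and 54.9, 5.66 and 20.3 in *Gde2*KO. These stand for 6.62, 8.06 and 26.0 estimated reads, so the highest value came from the shallowest library. Optn-205 passed the filter at 19 months only through the group where it was high, so that the usage p is given as a value and nothing is read from it. At 4 months Optn-205 had 0, 17.2 and 0 normalized counts in WT and 10.5, 18.4 and 18.1 in *Gde2*KO, and the usage test gave an adjusted p of 0.359. At 19 months the adjusted p was 0.317 with a pseudocount of 5 and 0.886 when all transcripts with a mean under 50 were left out. The coding transcript Optn-202 held 79.8% ± 6.52 of the TPM in WT and 70.2% ± 13.3 in *Gde2*KO at 19 months, where the knockout libraries held 55.2%, 80.3% and 75.1%. Without library A of the knockout the largest share difference was 4.66 points (adjusted p = 0.0086), and without WT B or C or knockout B or C it passed 10 points (10.1 to 14.7), so that the call depended on which library was included. The short non-coding Optn-204 held 7.04% to 11.4% of the TPM as a group mean.

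For *Tbk1*, 2 short transcripts annotated as retained introns held much of the TPM although few of the counts. Tbk1-205 and Tbk1-207 together with the coding Tbk1-201 made up the transcripts above 10%. Tbk1-201 held 59.3% ± 2.40 (SD, n = 3) of the TPM in WT and 67.2% ± 7.35 in *Gde2*KO at 4 months, and 52.7% ± 5.94 and 53.2% ± 2.92 at 19 months. In normalized counts the same transcript held 88.8% to 93.4% as a group mean. Tbk1-205 held 9.46%, 11.8% and 7.22% in *Gde2*KO at 4 months and 29.2%, 21.7% and 17.0% at 19 months, without overlap. How many of all transcripts separate with age in this way was not counted, so nothing is read from the separation. The usage test over the gene gave an adjusted p of 0.492. *Sqstm1* usage did not pass either, with Sqstm1-202 at 86.6% to 89.0% of the TPM as a group mean.

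**Figure D4:**
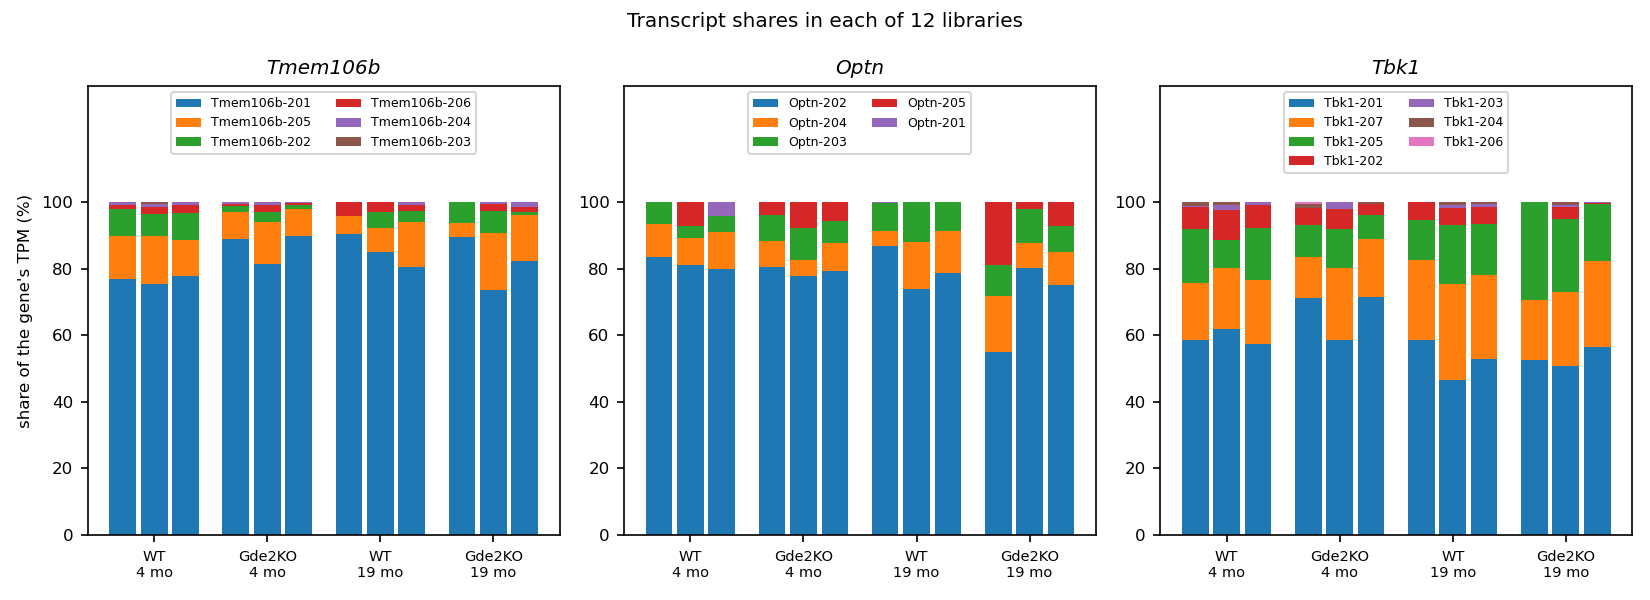
Share of the gene's TPM (vertical axis, %) held by each annotated transcript of *Tmem106b*, *Optn* and *Tbk1*, stacked for each of the 12 libraries in groups of 3. Tmem106b-201 is above 80% in the 3 *Gde2*KO and below 80% in the 3 WT libraries at 4 months, and Optn-205 is at 0 in the 3 WT libraries at 19 months and reaches 18.8% in the shallowest knockout library.

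Over all 10 genes, usage could be tested in 9, since *Ubqln2* has 1 transcript, and 0 were called in any comparison. The background was 122 of 12235 genes (0.997%) between genotypes at 4 months, 21 of 12253 (0.171%) at 19 months, 2.53% with age in WT and 3.2% with age in *Gde2*KO. With age the smallest adjusted p of the 9 was 0.498 in WT and 0.121 (*Sod1*) in *Gde2*KO.

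No difference in the unfoldase or the shuttle of the ubiquitin system passed the adjusted p with equal library weights and all libraries. *Vcp* (chr4:42979963-43000507, minus strand) had 11605, 10457 and 9674 normalized counts in WT and 12325, 9240 and 12441 in *Gde2*KO at 4 months, and 9472, 9550 and 9829 in WT and 9645, 9357 and 9640 in *Gde2*KO at 19 months. Its genotype difference at 19 months was -0.01 ± 0.04, with a 95% confidence interval of -0.11 to 0.09, and its age differences were -0.13 ± 0.12 in WT and -0.23 ± 0.12 in *Gde2*KO. *Ubqln2* (chrX:153498227-153501570) had 6637, 6593 and 5669 in WT and 7190, 5669 and 6248 in *Gde2*KO at 4 months, and 5880, 6301 and 6582 in WT and 6295, 6237 and 6334 in *Gde2*KO at 19 months. The groups overlapped for both genes in all 4 comparisons. *Ubqln2* differed by 0.01 ± 0.14 and 0.01 ± 0.05 between genotypes and by -0.01 ± 0.10 with age in each genotype. With library weights the age differences of *Vcp* (-0.34, adjusted p = 0.000797) and *Ubqln2* (-0.16, adjusted p = 0.0435) in *Gde2*KO and of *Vcp* in WT (-0.14, adjusted p = 0.0825) passed the adjusted p, as did that of *Vcp* in *Gde2*KO without replicate 2 (-0.38, adjusted p = 0.00777), all under the fold threshold. These passes are values only, as the share of all genes passing in those runs was not counted. The VCP cofactors *Ufd1* and *Nploc4* had age differences of -0.17 ± 0.13 and 0.25 ± 0.09 in WT, and -0.45 ± 0.13 and 0.23 ± 0.09 in *Gde2*KO. *Ubqln1* had 0.04 ± 0.09 in WT and 0.02 ± 0.09 in *Gde2*KO, and *Ubqln4* 0.38 ± 0.10 (adjusted p = 0.0222) and 0.07 ± 0.10.

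CHCHD10, at the mitochondrial cristae, is encoded by *Chchd10* (chr10:75933130-75937747), the gene with the largest genotype difference of the 10 at 4 months. Its normalized counts were 3245, 2828 and 3838 in WT and 4274, 3955 and 5274 in *Gde2*KO, so that all knockout libraries exceeded all WT libraries. A separation of all libraries by genotype, up or down, was seen for 15.4% of all genes. The log2 difference was 0.45 ± 0.17 (95% confidence interval 0.06 to 0.83, adjusted p = 0.463), or 0.34 relative to the median of all genes, and 0.33 without *Gde2*KO replicate 3. At 19 months it had 4309, 3670 and 3263 in WT and 4138, 3622 and 3768 in *Gde2*KO, overlapping (0.04 ± 0.10). The age differences were 0.18 ± 0.14 in WT and -0.22 ± 0.14 in *Gde2*KO, with neither called, although both passed the adjusted p with library weights (0.31, adjusted p = 0.00848, and -0.20, adjusted p = 0.0649). Nothing is read from the weighted values, since the share of all genes passing with weights was not counted. Chchd10-201 held 71.97% to 80.4% of the TPM as a group mean, the longer coding Chchd10-203 10.3% to 13.1% and the retained intron Chchd10-202 9.31% to 15.1%. *Chchd2*, the paralog that pairs with *Chchd10*, had an age difference of -0.56 ± 0.23 in WT (adjusted p = 0.107) and fell by 0.98 on the log2 scale in *Gde2*KO (SE 0.23, adjusted p = 0.0159), and *Immt*, the core of the cristae organizing complex, had -0.14 ± 0.11 and -0.31 ± 0.11.

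The 140 other genes in 8 lists of pathway members around these 10 were tested beside them. The lists held 25 other ALS and FTD genes, 11 genes of the C9orf72 complex and TBK1 adaptors, 24 autophagy receptors and core autophagy genes, 20 VCP cofactors, 9 ubiquilins and proteasome shuttle factors, 20 genes of superoxide and peroxide defence, 16 lysosomal partners of progranulin and TMEM106B and 15 mitochondrial partners of CHCHD10. All 140 passed the filter, and 0 were called between genotypes at 4 months or at 19 months, beside 0.126% and 0.0969% of all genes. Median differences at 4 months ran from 0.08 (VCP cofactors) to 0.32 (superoxide and peroxide defence), beside 0.11 over all genes. At 19 months they ran from -0.05 to -0.01, beside -0.02.

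With age, 3 of the 140 were called in WT and 18 in *Gde2*KO, beside 13.7% and 11.9% of all genes. The count in WT was thus below the background and that in *Gde2*KO near it. The largest change in both was in *Gpnmb*, a transmembrane glycoprotein of lysosomes and phagocytic cells that is raised in progranulin deficiency. *Gpnmb* rose by 3.48 ± 0.50 (adjusted p = 0.00129) in WT and by 3.77 ± 0.50 (adjusted p = 0.00124) in *Gde2*KO on the log2 scale. Its normalized counts were 213, 97.7 and 59.1 in WT and 56.1, 53.7 and 54.0 in *Gde2*KO at 4 months, and 896, 1079 and 1800 in WT and 348, 1394 and 865 in *Gde2*KO at 19 months. Every library at 19 months exceeded every library at 4 months, and the genotypes overlapped at 19 months. It was the single gene called among the 16 lysosomal partners, whose median was 0.17 in WT and -0.22 in *Gde2*KO. Summed TPM of 10 microglial markers was 314 to 414 in WT and 397 to 622 in *Gde2*KO at 4 months and 406 to 438 and 348 to 509 at 19 months, and its part in the result was not tested. *Hmox1*, the heme oxygenase induced by oxidative stress, rose by 0.79 ± 0.21 (adjusted p = 0.022) in WT and by 0.82 ± 0.21 (adjusted p = 0.0197) in *Gde2*KO. The call in WT was lost without replicate 2 at 4 months (0.67, under the fold threshold) and without replicates 1 and 2 (0.69, adjusted p = 0.311), and that in *Gde2*KO was lost without replicate 2 (0.60) and with library weights (0.717), both under the fold threshold. *Epha4*, an ephrin receptor proposed to modify ALS, was called lower in WT (-0.74 ± 0.24, adjusted p = 0.0511), with 13790, 12517 and 5811 normalized counts at 4 months and 5942 to 6045 at 19 months. Replicates 1 and 2 were high and replicate 3 was not, and without both the difference was 0.05.

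In *Gde2*KO, 16 of the 18 called genes were lower at 19 months. They were 7 of the 20 genes of superoxide and peroxide defence, 5 of the 15 mitochondrial partners of CHCHD10, 2 of the 24 autophagy genes, 1 of the 11 genes of the C9orf72 complex and TBK1 adaptors and 1 of the 25 other ALS and FTD genes, beside 9.32% of all genes called lower. Examples were the peroxiredoxin *Prdx2*, which fell by 0.82 (SE 0.17, adjusted p = 0.0102), *Minos1*, of the cristae organizing complex, with a 95% confidence interval of -1.44 to -0.56 (adjusted p = 0.00955), and *Gabarapl2*, of the Atg8 family on autophagosomes, which fell by 0.88 (SE 0.17, adjusted p = 0.00781). *Rab39b*, a GTPase on which the C9orf72 complex acts, fell by 0.84, and *Chmp2b*, the endosomal sorting gene mutated in a familial FTD, by 0.75. The other named genes were *Atg5*, *Gpx1*, *Txn1*, *Apoo* and *2410015M20Rik*, at -0.84, -0.83, -0.78, -0.77 and -0.95, beside *Chchd2* above. All 11 named genes were highest of the 12 libraries in *Gde2*KO replicate 3 at 4 months. Without that library 0 of the 11 were called (differences of -0.69 to -0.49), and 8 of the 11 were not called with median-ratio scaling. The high share of mitochondrially encoded RNA and the high total of normalized counts in that library were given above. Their part in the result was not tested.

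**Figure D5:**
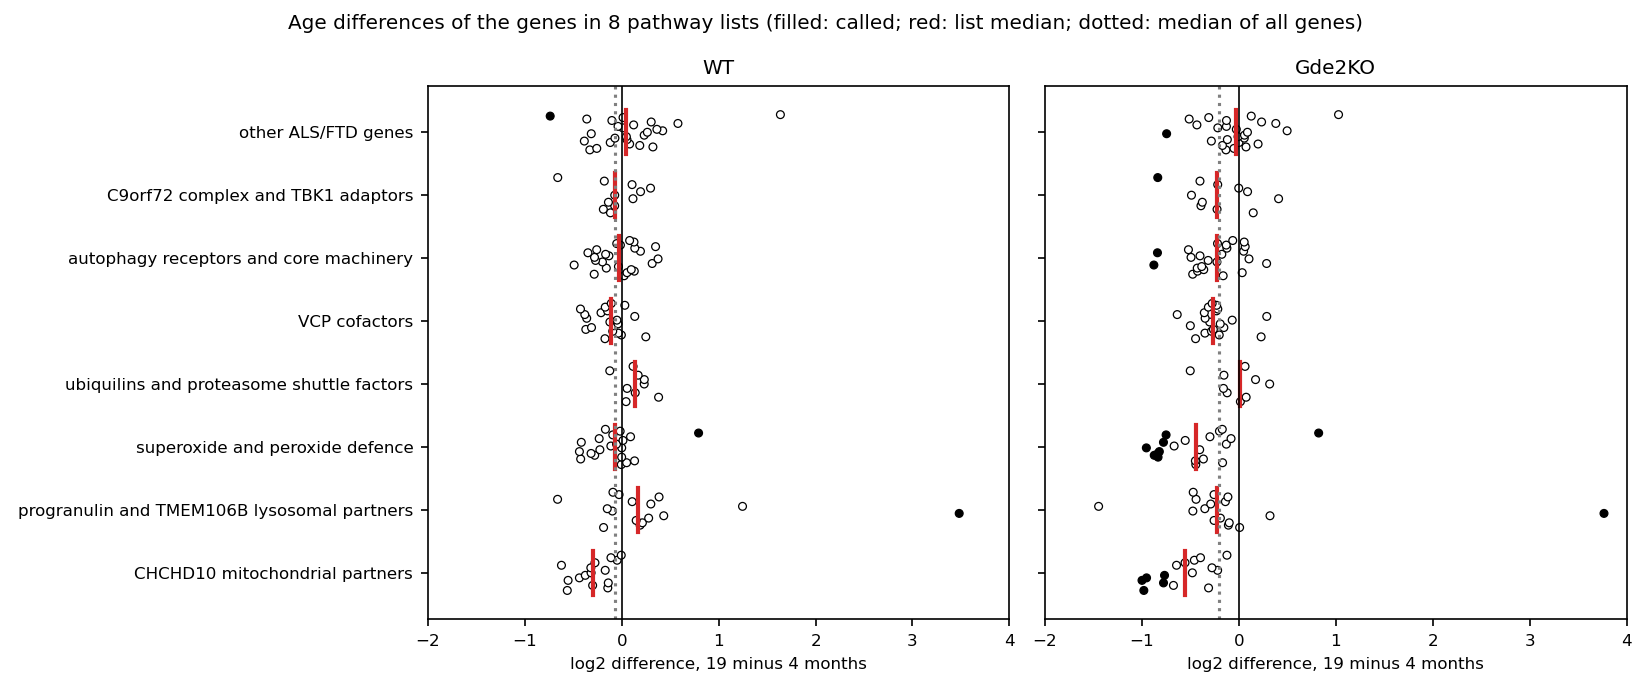
Log2 difference of 19 minus 4 months (horizontal axes) for the genes of 8 pathway lists in WT (left) and *Gde2*KO (right), 1 circle per gene, filled where called. The red bar is the list median and the dotted line the median of all genes, and the filled circle at the far right is *Gpnmb*, at 3.48 and 3.77, while the filled circles at the left of the *Gde2*KO panel are the genes called lower.

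The difference in age effect between genotypes was called on the adjusted p under 0.1 alone, with no fold threshold, for 9 of 18731 genes (0.048%) and for 0 of the 10. Their interaction terms ran from -0.43 (*Sod1*) to 0.14 (*Tbk1*) on the log2 scale, with adjusted p from 0.398 to 0.993 and a median of -0.10 beside -0.15 over all genes.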

How the data were processed

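Cortex RNA was sequenced in 12 libraries (4 groups, n = 3). The genes and gene lists were chosen with earlier results of these data known. Per the study's methods, reads were pseudo-aligned to the GRCm38 transcriptome with kallisto (trimming is stated for a splicing analysis not used here), and sleuth scaled the estimates between libraries. The deposited signal tables hold these normalized counts and TPM for 118489 transcripts, of which 1673 name no gene and were left out. Values were not whole reads, so no count model was used, and depth was estimated by taking the commonest low value of a library as 1 read. The study tested with sleuth's Wald test, which needs resampled estimates that were not used here.

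Gene sums were tested as log2(value + 0.5) with limma 3.58.1 (R 4.3.3; trended variance, Benjamini-Hochberg adjustment) among genes with a value of at least 5 in at least 47% of libraries, so fold changes of low genes are understated. Genotypes were compared within each age, and ages and the interaction in 1 fit over 12 libraries. Usage of transcripts within a gene was compared by diffSplice of limma among transcripts with a mean of at least 5. Single values were compared by exact permutation (SciPy 1.17.1). The scripts were tested on simulated data. Named genes were *Gdpd5*, the 10 genes, 2 partners of each, up to 4 called genes per list and comparison by smallest adjusted p, and transcripts at 10% or more of a gene's TPM in a group; Tmem106b-202 and Optn-205 were chosen after their values were seen. Library letters A to C at 19 months follow column order and pair nothing. The study gives 3 animals per genotype for 19-month cortex. At 4 months no source used here ties libraries to animals, so p-values there measure the spread between these libraries, which may be technical. Reads shared with pseudogenes or overlapping genes were assigned by kallisto and are uncertain.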

Additional observations from a re-analysis of the deposited data

How the results depend on the processing

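None of the 10 genes was called between genotypes at either age under any alternative run. The number of genes called between genotypes at 4 months was 24, and was 12 with no filter, 2420 with library weights, 14 without WT replicates 1 and 2 and 5 to 1510 leaving out 1 library (1510 without WT replicate 3); at 19 months it was 18, and 57 with library weights, 34 without WT A and *Gde2*KO A and 9 to 45 leaving out 1. With age in WT it was 2565, and 1692 with a minimum mean of 50, 4125 with library weights, 5279 on the adjusted p alone, 517 without WT replicates 1 and 2 and 1525 to 3096 leaving out 1; of the 10 genes 1 was called with TPM sums, 1 on the adjusted p alone and 0 to 1 leaving out 1. With age in *Gde2*KO it was 2224, and 6053 on the adjusted p alone and 1096 to 2851 leaving out 1 (1096 without *Gde2*KO replicate 3); of the 10 genes 3 were called on the adjusted p alone and 0 to 1 leaving out 1. For the interaction it was 9, and 5 with TPM sums, 6460 with library weights and 6 to 2029 leaving out 1 (2029 without WT replicate 3), with 4 of the 10 genes called under library weights (adjusted p alone). Usage called 1 of the 9 genes at 4 months with Simes adjustment, 1 with a pseudocount of 5 and 0 to 1 leaving out 1, also at 19 months and with age in *Gde2*KO (*Tbk1*, without *Gde2*KO B). The replicate numbers did not pair the 4-month libraries (correlations of 0.060, 0.0071 and -0.048), and with the replicate as a block 21 genes and 0 of the 10 were called. The causes of these shifts were not tested. Library weights were fitted gene by gene, since the default fit did not converge. Single differences also changed sign, where the interaction was followed only for *Sod1*, *C9orf72* and *Tmem106b*. With TPM sums these were *Tbk1* -0.17, *Ubqln2* -0.041, *Tmem106b* -0.19 between genotypes at 4 months, *Optn* 0.11 between genotypes at 19 months, *Optn* 0.066, *Tbk1* 0.28, *Ubqln2* 0.0299 with age in *Gde2*KO and *C9orf72* 0.0902 for the interaction. With median-ratio scaling these were *Tbk1* -0.069, *Vcp* -0.0064, *Ubqln2* -0.084, *Tmem106b* -0.064 between genotypes at 4 months, *Optn* 0.0029, *Vcp* 0.0027 between genotypes at 19 months, *Ubqln2* 0.034 with age in WT, *Optn* 0.082, *Tbk1* 0.13, *Ubqln2* 0.15 with age in *Gde2*KO and *C9orf72* 0.025 for the interaction. With library weights these were *C9orf72* -0.0073, *Grn* 0.14, *Tmem106b* -0.026 between genotypes at 4 months, *C9orf72* -0.015, *Sqstm1* 0.0012, *Ubqln2* -0.0021, *Grn* 0.042 between genotypes at 19 months, *Tbk1* 0.11 with age in *Gde2*KO and *C9orf72* 0.0028 for the interaction. Without WT A and *Gde2*KO A these were *C9orf72* -0.028, *Optn* 0.0070, *Ubqln2* -0.035, *Grn* 0.072, *Tmem106b* -0.0054 between genotypes at 19 months, *Ubqln2* 0.035 with age in WT, *Tbk1* 0.026 with age in *Gde2*KO and *Tmem106b* -0.038 for the interaction. Without WT replicates 1 and 2 at 4 months these were *Grn* 0.065 between genotypes at 4 months, *Ubqln2* 0.14, *Chchd10* -0.044, *Epha4* 0.047 with age in WT and *Tmem106b* -0.13 for the interaction. Leaving out 1 library at a time, the single values that changed sign ran over *Tbk1* -0.063 to 0.11, *Ubqln2* -0.078 to 0.093, *Grn* -0.13 to 0.054, *Tmem106b* -0.057 to 0.12 between genotypes at 4 months, *C9orf72* -0.081 to 0.075, *Optn* -0.0501 to 0.047, *Vcp* -0.021 to 0.0054, *Sqstm1* -0.057 to 0.035, *Ubqln2* -0.034 to 0.047, *Grn* -0.19 to 0.075, *Chchd10* -0.052 to 0.15 between genotypes at 19 months, *Ubqln2* -0.083 to 0.035 with age in WT, *Optn* -0.20 to 0.015, *Tbk1* -0.096 to 0.061, *Ubqln2* -0.092 to 0.079 with age in *Gde2*KO and *C9orf72* -0.19 to 0.0082, *Tmem106b* -0.057 to 0.12 for the interaction. Of 670 alternative values for the 10 genes, which hold the interaction only for *Sod1*, *C9orf72* and *Tmem106b*, 591 kept their direction and their side of the threshold. Of 240 for named list genes 199 did. *Gdpd5* at 19 months was not called with TPM sums (-0.84), in the fit over 12 libraries (adjusted p = 0.194) or without WT A (adjusted p = 0.118). Depth limits the precision of transcripts of few reads, and Optn-205 rested on 6.62 to 26.0 reads per knockout library at 19 months.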
